A study of Mus musculus with 9 samples.

Results

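Hacl1 and 7 further genes for the breakdown of branched-chain lipids (Phyh, Amacr, Acox2, Acox3, Scp2, Pecr and Aldh3a2) were examined in mouse liver, as 8 of the 32285 genes in the deposited table. They were chosen as named enzymes of the pathway, with Hacl1 already known to be low in Dox-treated livers of these same data, so their differences between Dox and control or Tc are described by values and standard errors with no p, and nothing is read from whether they were called there. All 8 had a mean of at least 10 normalized counts over the 9 libraries and so belonged to the 12100 genes tested. A normalized count is a read count per gene divided by a size factor for its library.

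RNA was sequenced from livers of 3 groups of mice. The paper's Tet-OFF mice carry PB CAG-CreERT2 together with LSL-tTA and tetO-Venus-ires-mCherry alleles at Rosa26. In them tamoxifen excises the stop cassette so that tTA is made. The paper's account of the RNA-seq states neither a genotype nor tamoxifen for the mice sequenced. The controls received no tetracycline antibiotic. The Dox group received doxycycline hyclate and the Tc group tetracycline hydrochloride, each at 2 mg/mL in sucrose-supplemented drinking water. Both drugs were given for 7 days from 4 weeks of age. Each group had 3 libraries, and the comparison asks how far each tetracycline antibiotic changes the liver transcriptome. The paper describes the mice as male. The CAG promoter that drives CreERT2 is broadly active, so tTA in Tet-OFF mice need not be limited to hepatocytes. Levels of tTA and of the tetO transgene were not examined here. In Tet-OFF mice tTA drives this transgene, and the paper reports that either drug represses it at the dose used here. If the sequenced mice were of this kind, drug exposure and transgene repression coincide in both drug groups. Their separate parts in any difference from control, that of Hacl1 included, were not tested.

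Phytol, a branched alcohol from chlorophyll, is converted through phytenoyl-CoA to phytanic acid, which has a methyl group where beta-oxidation would cut. Peroxisomes first shorten it by alpha-oxidation, in which phytanoyl-CoA hydroxylase (Phyh) adds a hydroxyl group and 2-hydroxyacyl-CoA lyase (Hacl1), an enzyme that uses thiamine pyrophosphate, splits off formyl-CoA to leave the aldehyde pristanal. Pristanic acid is then beta-oxidised after a racemase (Amacr) has set the methyl group in the right configuration, by the oxidases Acox2 and Acox3 and the thiolase made from Scp2. The same racemase, Acox2 and thiolase shorten the side chain of bile acid precursors. Liver is a main site of both routes.

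Hacl1 lies on the minus strand of chromosome 14 (31598730 to 31641286, GRCm38), head to head with Btd, the biotinidase gene on the plus strand (31641028 to 31668579). RefSeq places 91 bases between the starts of these genes. The 62 bases shown lie between the RefSeq start of Hacl1 and the first GENCODE base of Btd, at chr14:31640966-31641027 of GRCm38.p6. By the GENCODE coordinates given above, this stretch lies within Hacl1. It is read here on the minus strand in the direction of Hacl1, and is shown because both genes had lower levels in the drug-treated livers. The capitals mark a GC box, the letters GGGCGG read on the other strand.
Hacl1 and Btd start interval: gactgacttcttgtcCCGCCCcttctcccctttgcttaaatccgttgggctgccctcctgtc
G and C make up 58.1% of this interval. Within 250 bases before to 50 bases after the start, on both strands, GGGCGG was present in the windows of 5 of the 7 enzymes with a RefSeq window (1 match each for Hacl1 and Aldh3a2, 2 for Scp2, 3 for Pecr and 5 for Acox3), and in 35.7% of all 32851 windows. AGGTCA, the core letters of many nuclear receptor sites, was present for Phyh and Scp2 and in 16.3% of all windows. CCAAT was present for Hacl1, Pecr and Aldh3a2 and in 37.4% of all windows, and CACGTG, an E-box, for Aldh3a2 and in 7.15%. These matches describe letters only, not bound sites.

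The libraries of a group were not equally independent. Library 3 of a group could be written nearly as a mixture of libraries 1 and 2, with weights of 58.3% and 42.1% in controls, 61.3% and 34.6% with Dox, and 62.1% and 36.8% with Tc. For genes over 2-fold apart between the first and second library, the third lay between them in 501 of 586 cases in controls, 4139 of 4264 with Dox and 962 of 1022 with Tc. Values are therefore given with all 9 libraries and with the 6 first and second libraries, and standard errors from 9 may be too small. Dox 1 and Dox 2 also stood apart, since 35.2% of tested genes differed over 2-fold between them, against 4.84% for Control 1 and Control 2 and 8.45% for Tc 1 and Tc 2. In the 9-library model, the difference of Dox 1 from Dox 2 also enters the standard error and p of Tc against control. Libraries held 8250804 to 10912338 reads in controls, 7426136 to 10330238 with Dox and 10216627 to 12183041 with Tc. The fewest reads behind a value below were the 133 for Acox3 in Dox 2, a counting error of 8.67%, and Hacl1 had at least 1343 reads in every library.

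Hacl1 (ENSMUSG00000021884) was several-fold lower in the livers given either drug. It was at 8413, 12165 and 9933 normalized counts in the 3 control livers, at 1638, 1545 and 1572 in the Dox livers and at 2026, 2654 and 2427 in the Tc livers. Every treated library lay below every control, and the Dox libraries lay below the Tc libraries. The means were 10170 ± 1890 (SD, n = 3) in controls, 1585 ± 48.1 (SD, n = 3) with Dox and 2369 ± 318 (SD, n = 3) with Tc.

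With Dox, Hacl1 was 6.34-fold lower than in controls, a log2 fold change of -2.66 ± 0.17 (SE) on the log2(normalized count + 1) scale, and -2.67 ± 0.31 (SE) from the first and second libraries. Dox 1 and Dox 2, which differed widely for other genes, differed 1.06-fold for Hacl1. By size of fold change it ranked 108th from the lowest among 12100 genes.

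With Tc, Hacl1 fell 4.27-fold, a log2 fold change of -2.09 ± 0.17 (SE; limma adjusted p = 0.0059 over 12100 genes, 9 libraries), and was lower in 3 of 3 Tc libraries. Only 0.165% of tested genes were called in this comparison, a call being a fold change over 2 with an adjusted p under 0.05. The controls are the same 3 libraries as in the Dox comparison, so the choice of Hacl1 also drew on their values. The spread behind this p comes from all 9 libraries, the Dox libraries among them. The Tc test is therefore not independent of the choice. Over 20 alternative settings the Tc log2 fold change stayed between -2.22 and -1.96, while its adjusted p ranged from 2.03e-26 (DESeq2, 9 libraries) to 1.0 (limma, first and second libraries). In that last fit no gene at all was called, although 239 had an unadjusted limma p under 0.05, and Hacl1 had an unadjusted limma p of 0.000623. DESeq2 on the same 6 libraries gave an adjusted p of 6.34e-06 for Hacl1 and a log2 fold change of -2.14 ± 0.35 (SE). The limma call was also lost without Control 3 (adjusted p = 0.0742), Tc 1 (0.0516) or Tc 3 (0.0728), each in limma with the remaining 8 libraries.

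Dox livers had 1.49-fold less Hacl1 than Tc livers, a log2 difference of -0.57 ± 0.17 (SE) with 9 libraries and -0.54 ± 0.31 (SE) with the first and second libraries. The groups did not overlap, as was the case in the lower direction for 12.4% of tested genes. The difference was under the 2-fold limit and was not called.

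**Figure D1:**
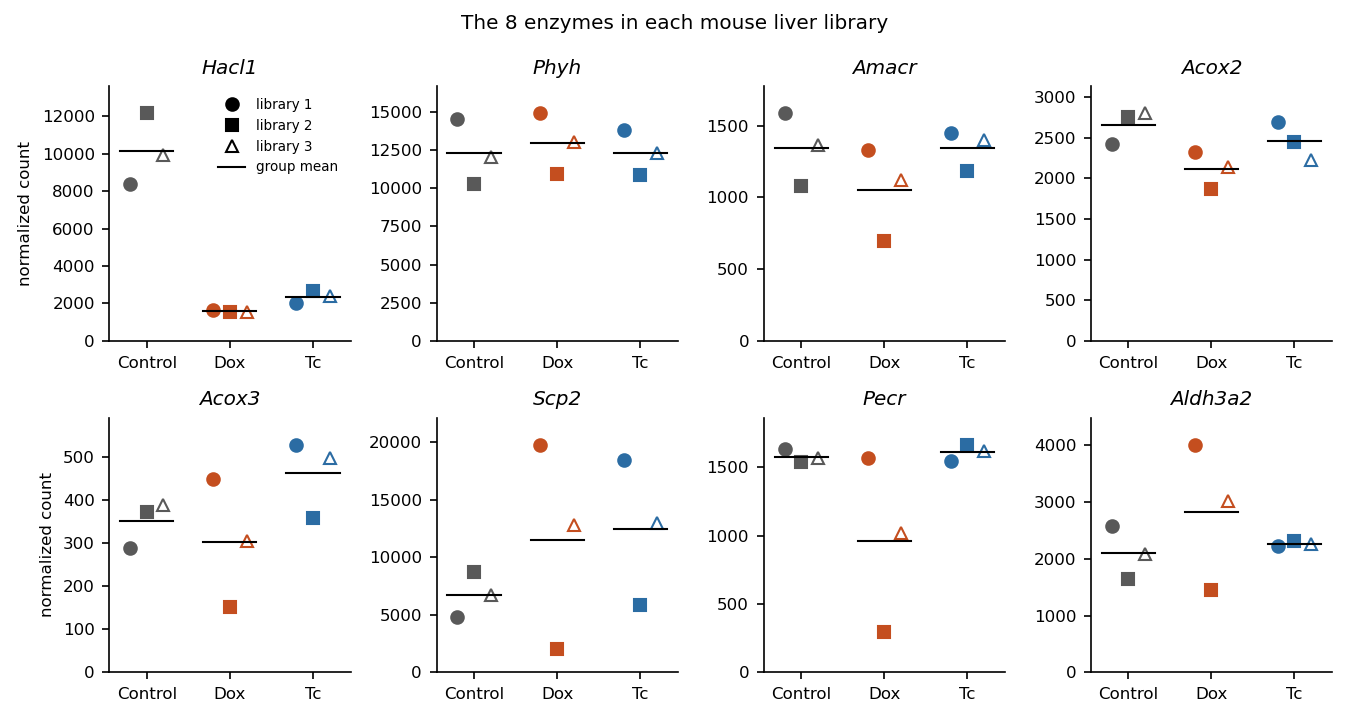
Normalized counts of the 8 enzymes (y axes, linear from 0, own scale per panel) in each library of the Control, Dox and Tc groups (x axes), with circles, squares and open triangles for libraries 1, 2 and 3 and a line for the group mean. Hacl1 is at 8413 to 12165 in controls and at 1545 to 2654 in all drug-treated libraries, while Scp2, Pecr, Acox3 and Aldh3a2 are far apart between Dox 1 and Dox 2.

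The annotation bears on the count of Hacl1. A predicted transcript of the same strand, Gm49387, shares 1540 exon bases with Hacl1, 31.1% of the exon bases of Hacl1, and Btd shares 108 bases on the opposite strand. The kit was directional, but the strand setting used in counting is not given in the sources used here, nor is the treatment of reads that match both Hacl1 and Gm49387. Gm49387 itself has no value in the deposited table. In bulk liver, fewer cells of a type and less RNA per cell cannot be told apart.

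Per kilobase of annotated exon, the drug-treated livers placed Hacl1 differently among the 8 enzymes. In controls the mean order was Phyh (6489 normalized counts per kilobase), Hacl1 (2057), Scp2 (1943), Pecr (1040), Acox2 (718), Amacr (516), Aldh3a2 (373) and Acox3 (30.5). The ranges of Hacl1 and Scp2 overlapped, as did those of Amacr and Aldh3a2, and the other neighbours in this order did not overlap. With Dox, Hacl1 was 7th of 8 at 321 per kilobase, above Acox3 alone in the mean, though its range lay within that of Amacr and it was 4th in Dox 2, where several other enzymes were low. With Tc it was 6th at 479 per kilobase, overlapping with Amacr just above it at 517. Exon length was counted over all annotated transcripts, so a gene with rarely used exons, such as Acox3 with 11521 bases, has a low value per kilobase.

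The enzyme that acts just before Hacl1 did not share its pattern. Phyh (ENSMUSG00000026664, chromosome 2, 4919019 to 4938730), the hydroxylase that is deficient in most cases of Refsum disease, was at 14514, 10293 and 12045 normalized counts in controls, 14917, 10953 and 13069 with Dox, and 13833, 10847 and 12294 with Tc. The groups overlapped throughout, and within each group the first library was the highest. The log2 fold change of Phyh was 0.08 ± 0.21 (SE) with Dox and 0.01 ± 0.21 (SE) with Tc (limma adjusted p = 0.991). The ratio of Hacl1 to Phyh per exon length, formed within each library and so free of the scaling between libraries, was 0.222, 0.452 and 0.316 in controls, 0.042, 0.054 and 0.0461 with Dox, and 0.0561, 0.0937 and 0.0756 with Tc. Every treated library had a lower ratio than every control.

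**Figure D2:**
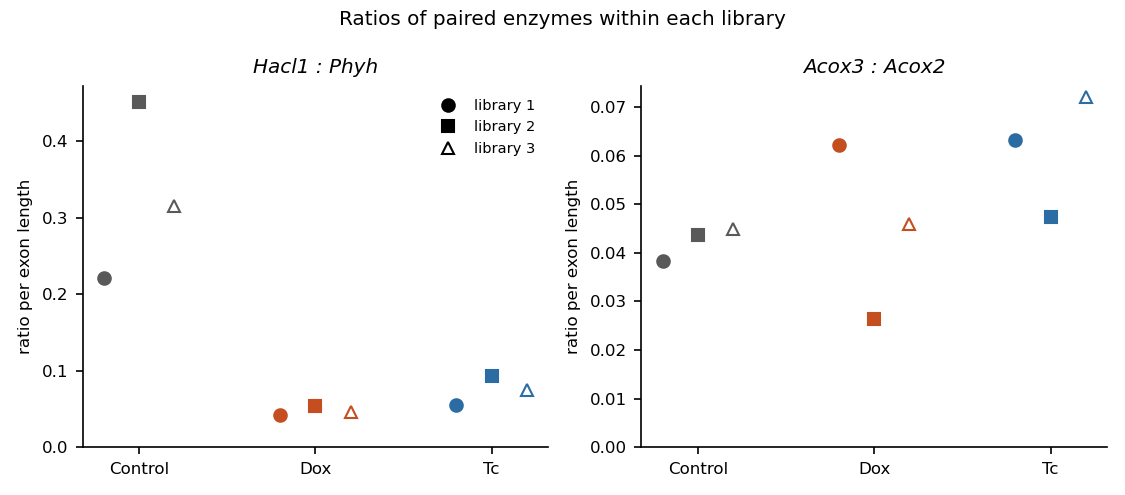
Ratio of 2 enzymes per exon length within each library (y axes, linear from 0) for Hacl1 over Phyh and for Acox3 over Acox2, by group on the x axes, with circles, squares and open triangles for libraries 1, 2 and 3. Hacl1 over Phyh is 0.222 to 0.452 in controls and 0.042 to 0.0937 in the treated libraries, whereas the Acox3 over Acox2 ratios of the groups overlap between controls and Dox.

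Pecr and Aldh3a2 act before and after the lyase. Pecr (ENSMUSG00000026189, chromosome 1, 72259167 to 72284314) encodes the peroxisomal reductase that saturates the double bond left by phytol oxidation. It was at 1633, 1534 and 1564 normalized counts in controls and 1547, 1663 and 1618 with Tc, and at 1564, 292 and 1021 with Dox. Dox 1 was thus inside the control range and Dox 2 was 5.35-fold below Dox 1. The log2 fold change was -1.02 ± 0.50 (SE) with Dox, -1.23 ± 0.75 (SE) from the first and second libraries, -0.32 without Dox 2 and -1.53 without Dox 1. With Tc it was 0.03 ± 0.50 (SE; limma adjusted p = 0.991). That SE takes in the Dox libraries, and it was 0.08 in the fit of the Tc and control libraries alone.

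Aldh3a2 (ENSMUSG00000010025, chromosome 11, 61223417 to 61267464) encodes the fatty aldehyde dehydrogenase whose loss causes Sjögren-Larsson syndrome and which oxidises phytenal and other long aldehydes. It was at 2567, 1637 and 2085 normalized counts in controls, 4000, 1445 and 3006 with Dox, and 2224, 2301 and 2249 with Tc. Dox 1 and Dox 3 lay above all controls and Dox 2 lay below them. The log2 fold change was 0.33 ± 0.34 (SE) with Dox, 0.75 without Dox 2, and 0.13 ± 0.34 (SE) with Tc (limma adjusted p = 0.929).

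Amacr (ENSMUSG00000022244, chromosome 15, 10981756 to 10996626), the racemase, was at 1587, 1078 and 1369 normalized counts in controls, 1334, 698 and 1119 with Dox, and 1452, 1188 and 1403 with Tc. Dox 2 was the lowest library and the other Dox libraries lay within the control range. For Amacr the log2 fold change was -0.39 ± 0.25 (SE) with Dox, -0.12 without Dox 2, and 0.02 ± 0.25 (SE) with Tc (limma adjusted p = 0.99). Hacl1 exceeded Amacr per exon length 2.79-, 5.95- and 3.82-fold in controls, and the ratios were 0.647, 1.17 and 0.74 with Dox and 0.735, 1.18 and 0.912 with Tc.

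The acyl-CoA oxidases carry out the first step of beta-oxidation of branched chains. Acox2 (ENSMUSG00000021751, chromosome 14, 8225511 to 8259353), which acts on bile acid precursors and branched acids, was at 2422, 2760 and 2800 normalized counts in controls, 2324, 1869 and 2143 with Dox, and 2696, 2441 and 2225 with Tc. It was the only enzyme besides Hacl1 whose Dox libraries all lay below the controls, by a log2 fold change of -0.34 ± 0.14 (SE), or -0.31 ± 0.26 (SE) from the first and second libraries. The Tc libraries overlapped the controls, with a log2 fold change of -0.12 ± 0.14 (SE; limma adjusted p = 0.818).

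Acox3 (ENSMUSG00000029098, chromosome 5, 35583040 to 35615352), an oxidase of branched acids such as pristanoyl-CoA, was the least abundant of the 8 genes. It was at 289, 374 and 390 normalized counts in controls, 450, 153 and 306 with Dox, and 529, 360 and 499 with Tc. Acox3 had a log2 fold change of -0.33 ± 0.36 (SE) with Dox, 0.09 without Dox 2, and 0.39 ± 0.36 (SE) with Tc (limma adjusted p = 0.746). The difference of Dox from Tc was -0.72 ± 0.36 (SE), and -1.07 without Dox 1. The ratio of Acox3 to Acox2 per exon length was 0.0384, 0.0436 and 0.0448 in controls, 0.0622, 0.0263 and 0.0459 with Dox, and 0.0631, 0.0474 and 0.072 with Tc. All Tc ratios were above the controls and the Dox ratios spanned them.

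Scp2 (ENSMUSG00000028603, chromosome 4, 108043839 to 108144998) gives rise both to the thiolase that ends each round of branched-chain beta-oxidation and, from an internal start, to sterol carrier protein 2, and gene counts do not separate these products. It varied most among the 8 enzymes, at 4835, 8743 and 6698 normalized counts in controls, 19752, 1999 and 12781 with Dox, and 18426, 5863 and 12963 with Tc. Dox 1 was 9.88-fold above Dox 2 and Tc 1 was 3.14-fold above Tc 2, whereas in controls the second library was the higher. The log2 fold change was 0.28 ± 0.79 (SE) with Dox, -0.05 ± 1.16 (SE) from the first and second libraries and 1.27 without Dox 2. With Tc it was 0.77 ± 0.79 (SE; limma adjusted p = 0.78). In the fit of the Tc and control libraries alone, the SE of the Tc log2 fold change was 0.41 for Scp2, 0.18 for Acox3 and 0.16 for Aldh3a2. It was 0.17 for Phyh, 0.15 for Amacr and 0.11 for Acox2 in that fit.

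**Figure D3:**
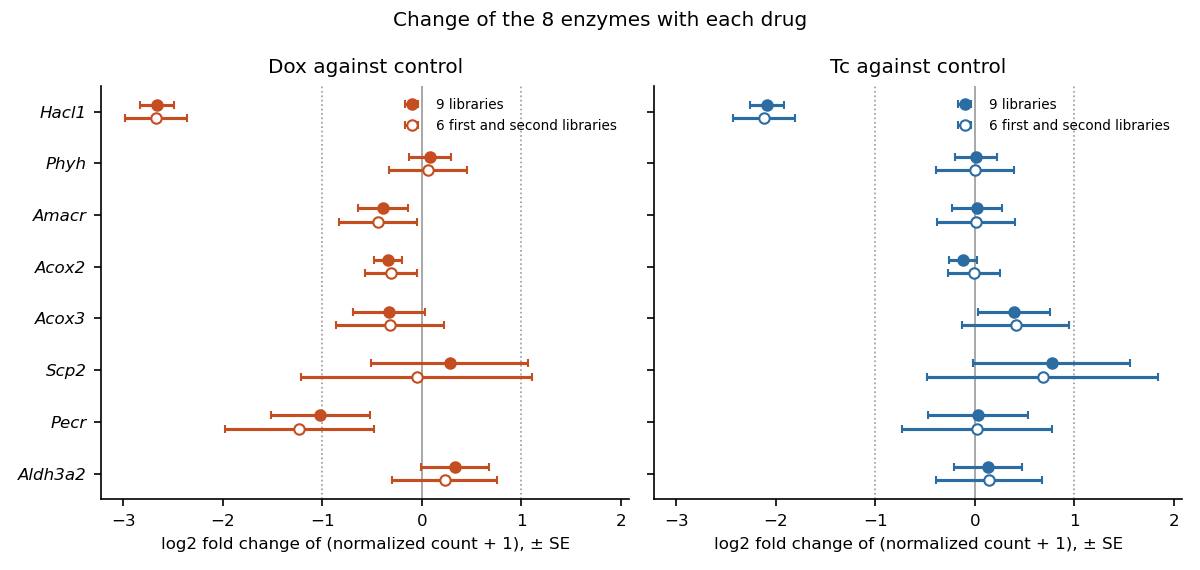
Log2 fold change of (normalized count + 1) against control (x axes, bars ± SE) for each of the 8 enzymes, with Dox on the left and Tc on the right, from all 9 libraries (filled) and from the 6 first and second libraries (open), and dotted lines at 2-fold. Hacl1 lies at -2.66 with Dox and -2.09 with Tc, while the other 7 enzymes lie between -1.02 and 0.33 with Dox and between -0.12 and 0.77 with Tc in the 9-library fit.

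Read together, 1 of the 8 enzymes, Hacl1, was called with Dox, where 5.0% of tested genes were called. Hacl1 was chosen on this contrast, and nothing is read from its Dox calls by either tool. With Tc the count was also 1 of 8, Hacl1, and in Dox against Tc it was 0 of 8 by limma, DESeq2 and edgeR, where limma called 0.215% of tested genes. DESeq2 on all 9 libraries gave the same counts, 1, 1 and 0 of the 8 enzymes, with 9.4%, 1.56% and 4.98% of tested genes called. On the first and second libraries limma called no gene in any comparison (1040, 239 and 454 genes had an unadjusted p under 0.05) and DESeq2 called 1 of the 8, Hacl1, with Tc, where it called 0.0744% of tested genes (with Dox, the contrast of the choice, also Hacl1, with 1.2% of tested genes called), and none of the 8 in Dox against Tc, where it called 0.256% of tested genes. The treated libraries lay below the controls with no overlap for 2 of 8 with Dox (Hacl1 and Acox2), against 17.1% of tested genes, and for 1 of 8 with Tc (Hacl1), against 14.9%. In neither comparison did an enzyme lie above the controls with no overlap. Both drug groups lay below the controls with no overlap for 1 of the 8, Hacl1, and for 6.3% of tested genes. The median log2 fold change of the 8 was -0.33 with Dox and 0.02 with Tc, against 0.0 for all tested genes in each comparison.

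The scale matters for small differences. Scaling every library to the same total in place of size factors raised the log2 fold change of the median gene by 0.17 with Dox and by 0.0 with Tc. Hacl1 was then at -2.49 with Dox and -2.09 with Tc, and the other 7 enzymes moved upward with Dox too.

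Genes of the surrounding pathways were taken from 9 lists that were also chosen with earlier results known. Calls and adjusted p-values of list genes are therefore printed as description, and nothing is read from them as a test. Besides the 8 enzymes the lists held 112 genes with a value, of which 106 were tested. With Dox 2 rose and 3 fell, which is 4.72% of the 106 against 5.0% of all tested genes, and with Tc none was called by limma or edgeR (9 of the 106 had an unadjusted limma p under 0.05, as had 11.7% of all tested genes) and 1, Ehhadh, by DESeq2 on 9 libraries. The median log2 fold change of the 106 was -0.14 with Dox and 0.07 with Tc. The count with Dox moved with the libraries used, from 0 without Control 2 or without Control 3, 1 without Dox 3 and 2 without Control 1 to 10 without Dox 2 and 14 without Dox 1. It was 2, both higher, when replicate number entered the model as a block. It was 0 in limma and 1 in DESeq2 on the first and second libraries, and 11 in DESeq2 on all 9. With Tc, 2 genes were called without Dox 2 and 2 in the fit of the Tc and control libraries alone.

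Among the partners of alpha-oxidation, Acsl4, an acyl-CoA synthetase that prefers arachidonic acid, rose with Dox, from 431, 385 and 414 normalized counts in controls to 815, 997 and 767, and was at 936, 664 and 798 with Tc. Its log2 fold change with Dox was 1.06 ± 0.16 (SE; limma adjusted p = 0.0114, range over 20 alternatives 1.3e-06 to 0.559), and the call was lost without Control 2, Control 3 or Dox 2. The other 7 tested genes of that list were not called by limma with all 9 libraries. Hao2, a peroxisomal oxidase of 2-hydroxy acids, was at 324, 69.9 and 206 normalized counts in controls, 0, 24.2 and 7.92 with Dox, and 4.88, 189 and 83.4 with Tc. It was called, as lower with Dox, by DESeq2 on all 9 libraries (adjusted p = 0.0299) and by limma without Dox 2 (adjusted p = 0.0232), in a range of 0.0232 to 0.607 over 20 alternatives.

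Of 20 tested enzymes of the straight-chain and shared parts of peroxisomal beta-oxidation, 2 fell with Dox and none was called with Tc by limma. DESeq2 on all 9 libraries called 4 with Dox, these and Acot3 and Acot4. Ehhadh, the bifunctional enzyme that handles straight-chain acyl-CoAs and dicarboxylic acids, was at 26960, 8137 and 17664 normalized counts in controls, 4451, 3894 and 4080 with Dox, and 2556, 7393 and 4675 with Tc. Both drug groups lay below the controls, with log2 fold changes of -1.93 ± 0.48 (SE; limma adjusted p = 0.0436, range 0.000199 to 0.573) with Dox and -1.82 ± 0.48 (SE; limma adjusted p = 0.214, range 0.00516 to 1.0) with Tc. Eci3, an enoyl-CoA isomerase with a close paralog, was at 125, 15 and 77.6 normalized counts in controls, 0, 1.15 and 0 with Dox (limma adjusted p = 0.0359, range over 19 alternatives 9.4e-05 to 0.573), and 0.977, 65.6 and 17.7 with Tc. Nudt7, a CoA diphosphatase of peroxisomes, was not called by limma with all 9 libraries. It was at 5290 normalized counts in Dox 1 and 141 in Dox 2 against 1283 to 1559 in controls, and its Tc libraries (3101 to 7668) all lay above the controls. Without Dox 2, limma called it as higher with Dox (log2 fold change 1.59, against -0.03 with all libraries; adjusted p = 0.0146, range over 20 alternatives 0.0146 to 1.0) and with Tc (1.82; adjusted p = 0.0146, range 0.0142 to 1.0), and the fit of the Tc and control libraries alone also called it. The median log2 fold change of the list was -0.22 with Dox and 0.10 with Tc.

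Of 10 transporters and tethers of the peroxisomal membrane, Abcd2, a transporter of very long-chain acyl-CoAs, fell with Dox. It was at 1413, 632 and 1153 normalized counts in controls, 55.8, 358 and 170 with Dox, and 393, 830 and 534 with Tc. Its log2 fold change with Dox was -2.74 ± 0.62 (SE; limma adjusted p = 0.0347, range 0.000575 to 0.566). The calls of Ehhadh, Eci3 and Abcd2 were each lost without any 1 of the controls, and without Dox 3 or Tc 3. Abcd3, which carries branched-chain acyl-CoAs and bile acid precursors into peroxisomes, was not called by limma with all 9 libraries but was called as higher with Dox without Dox 2 (log2 fold change 1.02, against 0.52 with all libraries). It was at 2548, 2317 and 2488 normalized counts in controls, 5867, 1742 and 4199 with Dox, and 3870, 3679 and 3440 with Tc.

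No gene was called by limma in either drug comparison among 9 genes of bile acid side chain shortening (3 of them among the 8 enzymes), 11 of propionyl-CoA handling, 16 peroxins, 16 other matrix enzymes or 10 genes of thiamine pyrophosphate supply and use. At an unadjusted limma p under 0.05, leaving out the 8 enzymes, these lists in the same order held 1, 0, 1, 3 and 3 genes with Dox and 0, 0, 1, 2 and 1 with Tc, where 29.1% and 11.7% of all tested genes passed this limit. DESeq2 on all 9 libraries called Hao2 among the matrix enzymes, lower with Dox. The median log2 fold changes of the full lists with Dox were -0.25, -0.21, 0.03, -0.17 and 0.10, and with Tc 0.13, 0.10, 0.05, 0.10 and 0.14. In the thiamine list, which holds the cofactor genes of the lyase, the thiamine transporter gene Slc19a2 was higher in all libraries of both drugs, at 684, 578 and 704 normalized counts in controls, 980, 1342 and 1066 with Dox, and 1077, 1082 and 965 with Tc. Its log2 fold change of 0.78 ± 0.15 (SE; limma adjusted p = 0.0213, range 0.000214 to 0.559) with Dox was under the 2-fold limit, as was 0.67 ± 0.15 (SE) with Tc.

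PPAR-alpha is the nuclear receptor that raises many peroxisomal genes. Of 18 tested genes of its list, limma called Acot1, an acyl-CoA thioesterase of a family of close paralogs, as higher with Dox and Ehhadh, named above, as lower. DESeq2 on all 9 libraries called 5 of the 18 with Dox, these and Cyp4a14, Pdk4 and Angptl4, where it called 9.4% of tested genes. Acot1 was at 80.4, 63.7 and 80.1 normalized counts in controls, 171, 360 and 250 with Dox, and 98.6, 80 and 81.7 with Tc, a log2 fold change of 1.73 ± 0.26 (SE; limma adjusted p = 0.0114, range 6.12e-07 to 0.559) with Dox that was not called without Control 2, Control 3 or Dox 3. Acot1 lay above the controls and Ehhadh below them in both Dox 1 and Dox 2, whereas some other targets, such as Pdk4 and Fabp1, lay on opposite sides of the controls in these libraries. Pdk4, the pyruvate dehydrogenase kinase of fasting, was at 13.7 normalized counts in Dox 1 and 1824 in Dox 2 (25.4 to 42.5 in controls), and Fabp1, the liver fatty acid binding protein, was at 3920 in Dox 1 and 31.1 in Dox 2 (1296 to 1669 in controls). The spread of Scp2, Pecr and Aldh3a2 between Dox 1 and Dox 2 stood beside these values, and their part in it was not tested.

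**Figure D4:**
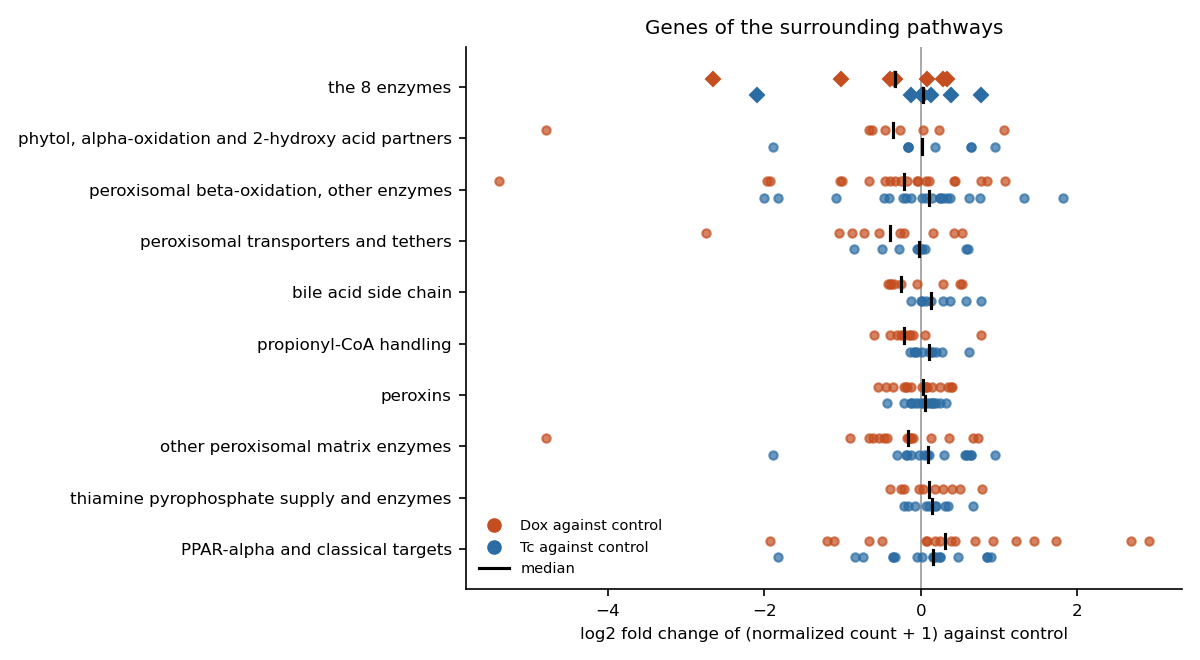
Log2 fold change of (normalized count + 1) against control (x axis) for every tested gene of 9 pathway lists and, as diamonds, of the 8 enzymes, with Dox in orange above and Tc in blue below in each row and a black bar at the median. List medians lie between -0.40 and 0.31 with Dox and between -0.02 and 0.15 with Tc, and Hacl1 is the leftmost diamond of each colour.

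Btd, which starts beside Hacl1, was lower with both drugs, though less so than Hacl1. Biotinidase recycles biotin, a cofactor of carboxylases. It was at 915, 869 and 924 normalized counts in controls, 478, 621 and 478 with Dox, and 560, 678 and 590 with Tc, so that no drug-treated library reached a control. Its log2 fold change was -0.79 ± 0.14 (SE; limma adjusted p = 0.0167, range 4.57e-05 to 0.566) with Dox and -0.57 ± 0.14 (SE; limma adjusted p = 0.185, range 0.0175 to 1.0) with Tc. Neither passed the 2-fold limit in any of the 20 alternatives. Hacl1 exceeded Btd 9.2-, 14- and 10.7-fold in controls, 3.43-, 2.49- and 3.29-fold with Dox and 3.62-, 3.91- and 4.11-fold with Tc, in normalized counts. The next genes with a value did not follow Hacl1. Ankrd28, a subunit of protein phosphatase 6 beyond Btd, was at 89.3% to 108% of the control mean in controls, 119% to 141% with Dox and 92.4% to 103% with Tc. Eaf1, a transcription elongation factor on the other side, was at 96.5% to 103%, 108% to 141% and 97.8% to 124%, and Colq between them reached at most 2.3 normalized counts in any library and was not tested.

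**Figure D5:**
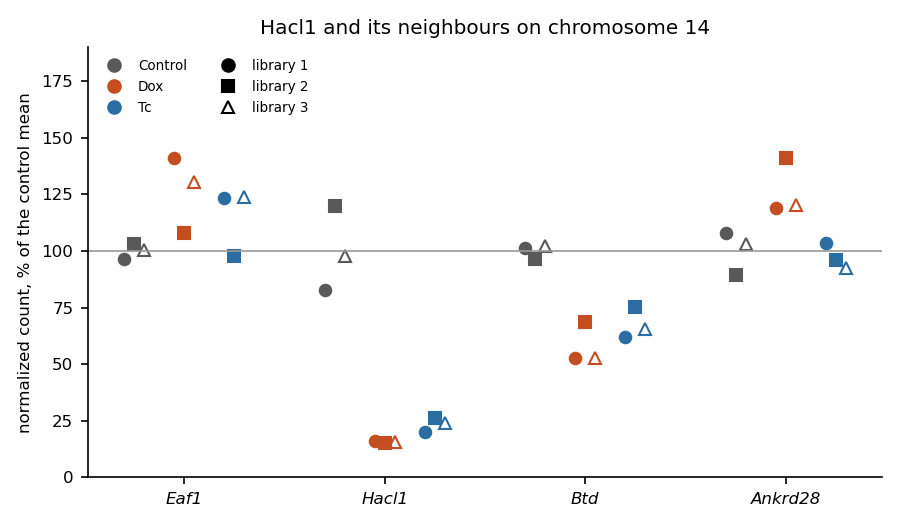
Normalized counts as a percentage of the control mean (y axis, linear from 0) in each library for Hacl1 and 3 neighbouring genes, in chromosome order from left to right, with groups by colour and libraries by marker. Drug-treated libraries are at 15.2% to 26.1% for Hacl1 and at 52.9% to 75.1% for Btd, and at or above 92.4% for Eaf1 and Ankrd28.

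The genes whose levels followed Hacl1 most closely were low with both drugs as well, as they had to be to be chosen. Over the 9 libraries, which fall into treatment groups and share the third-library structure, the highest Pearson r of log2 levels among 9378 genes with a mean of at least 50 was 0.982 for Wdcp, followed by Gstm5 (0.982, a glutathione transferase with close paralogs), Pcsk6 (0.979, a proprotein convertase), Mdfic (0.978) and Bcat2 (0.978, the mitochondrial branched-chain aminotransferase). Wdcp was at 139, 141 and 153 normalized counts in controls, 59, 61 and 48.4 with Dox, and 65.4, 72.8 and 71.6 with Tc. Pcsk6 was at 5297, 4775 and 5261 in controls, 1639, 1405 and 1531 with Dox, and 1671, 2528 and 2144 with Tc. Over the 6 first and second libraries the leading genes were Wdcp (0.991), Msl3 (0.990), Bcat2 (0.989), Prodh2 (0.984) and Mdfic (0.977). Btd had r = 0.930 with Hacl1 over 9 libraries, 41st of 9378. Among the other enzymes of the pathway r over 9 libraries was 0.691 for Acox2, 0.420 for Pecr, 0.310 for Amacr, 0.103 for Acox3, -0.196 for Scp2, -0.246 for Phyh and -0.320 for Aldh3a2.

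The samples had the markers of liver, and the levels of several marker lists differed between the groups in either direction. The summed normalized counts of 8 hepatocyte markers were 1209762 to 1685046 in controls, 471987 to 848319 with Dox and 834225 to 1333957 with Tc, and individual markers lay below all controls in 2 of 8 cases with Dox and 0 of 8 with Tc, and above them in 1 of 8 with Dox. For 6 Kupffer cell markers the sums were 6324 to 10371, 1762 to 4486 and 2997 to 5979, with 5 of 6 below all controls with Dox and 4 of 6 with Tc, where 17.1% and 14.9% of tested genes lay below all controls. For 6 markers of sinusoidal endothelium they were 3822 to 4062, 1931 to 2304 and 3074 to 3576, with 5 and 3 of 6 below, and 4 of 5 erythroid markers were below with each drug. For 6 cholangiocyte markers the sums were 200 to 243 in controls, 148 to 376 with Dox and 256 to 335 with Tc. Above all controls lay 2 of 6 with Dox and 1 of 6 with Tc, against 16.1% and 15.8% of tested genes. For 5 markers of exocrine pancreas the sums were 96.6 to 120 in controls, 23.0 to 66.3 with Dox and 69.2 to 120 with Tc. Of these 5, Prss1, Pnlip and Cpa1 were at 0 in every library, and 4 stayed under 10 in every library. With Dox 1 of the 5 lay below all controls, and with Tc 0 did. For 6 stellate cell markers the sums were 2751 to 2985 in controls, 2232 to 3441 with Dox and 2679 to 3201 with Tc. Of these 6, 5 overlapped the controls with Dox and 4 with Tc. Below all controls with Dox lay 2 of 6 neutrophil, 2 of 5 lymphocyte and 2 of 5 intestine markers. With Tc these counts were 1, 2 and 0. The part of these markers in the level of Hacl1 was not tested.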

How the data were processed

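Liver RNA of 3 groups with 3 libraries each was sequenced from 1 end. Per the labels and the study's methods, the authors trimmed reads with cutadapt, aligned them with STAR 2.7.11ac to mm10, counted them per gene with HTSeq 2.0.5 and divided the counts by DESeq2 1.42.0 size factors. The deposited values are these normalized counts, a signal per gene and library, and all 9 columns were used. Whole reads were recovered for 100% of values, within 0.01 reads, and served for DESeq2 1.42.0 and edgeR 4.0.16, fitted as alternatives. Symbols were found for 32158 of 32285 identifiers. The study compared groups with DESeq2, but since the values are normalized, the test was limma 3.58.1 with a trend in R 4.3.3, on log2(normalized count + 1), in 1 model of 9 libraries and 12100 genes with a mean of at least 10, with Benjamini-Hochberg adjustment. A call needed a fold change over 2 and an adjusted p under 0.05. All tests were two-sided.

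The 8 genes and all lists were chosen with earlier results of these data known. The text names those 8, list genes that were called or had the largest fold changes, the 5 genes most like Hacl1 by Pearson r, and the nearest 2 genes on each side. Abcd3, Hao2, Nudt7, Pdk4, Fabp1 and Slc19a2 came under the rule of largest fold change; other genes under it are summarised in the list counts, and 1 result is not reported here. The study describes the libraries of a group as biological replicates and independent samples, but the labels tie none to an animal and library 3 resembles a mixture of the others, so p-values measure the spread between these samples, which may be technical. Deviations of same-numbered Dox and Tc libraries from their group means correlated at 0.287, 0.321 and 0.182. Deviations of controls did not correlate with those of either drug (-0.0807 to 0.055). Whether the numbers pair libraries was not tested. Coordinates are from GENCODE M21 (GRCm38) and promoter sequence is from RefSeq (GRCm38.p6). Intervals and errors from read numbers cover counting error only. The scripts' tests were checked on simulated data.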

Additional observations from a re-analysis of the deposited data

How the results depend on the processing

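The direction of Hacl1 was the same under all 20 alternatives in Dox against control and in Tc against control, and under all 21 in Dox against Tc. With limma on the first and second libraries its log2 fold change was -2.67 with Dox and -2.12 with Tc. These were past the 2-fold limit but not the adjusted p limit, and this fit called 0 genes in each comparison and 0 of the 8 enzymes. The Hacl1 log2 fold change without any 1 library ranged from -2.79 to -2.53 with Dox, from -2.22 to -1.96 with Tc and from -0.68 to -0.48 in Dox against Tc. Of the 8 enzymes 1 to 2 were called without any 1 library with Dox (2, with Pecr, without Dox 1), 0 to 1 with Tc and 0 to 2 in Dox against Tc (Acox3 and Pecr, without Dox 1), and nothing is read from the Dox calls, since the enzymes were chosen with Dox results known. Without Dox 1, Pecr was at -1.53 against control and -1.56 against Tc, and Acox3 at -1.07 against Tc. With Dox, 605 genes were called over all genes, 369 with a mean of at least 50, 1137 by DESeq2, 333 in the fit of 2 groups, 145 by DESeq2 on the first and second libraries, 1018 with no fold limit, and 33 (without Control 3) to 1500 (without Dox 1) without any 1 library. With Tc, 20 were called, 10 with a pseudocount of 0.1, 32 with no filter, 9 with a mean of at least 50, 189 by DESeq2, 276 in the fit of 2 groups, 9 by DESeq2 on the first and second libraries, and 1 to 221 (without Dox 2) without any 1 library. In Dox against Tc, 26 were called, 6 with a pseudocount of 0.1, 0 with 8, 4 with no filter, 0 with a mean of at least 50, 3 with the same total per library, 603 by DESeq2, 0 by edgeR and in the fit of 2 groups, and 0 to 1362 (without Dox 1) without any 1 library. With the replicate number as a block, over 9 libraries, 2 genes were called in Tc against control (Hacl1 among them, log2 fold change -2.09) and 2 in Dox against Tc, and 0 in Dox against Tc when the block held only Dox and Tc. The block changed no call of the 8 enzymes. The cause of these changes was not tested. Depth limits Acox3 most, with 133 reads in its lowest library (counting error 8.67%).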
